A study of Mus musculus with 5 samples.

Results

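Glycolysis and the response to low oxygen were described through 32 genes measured in 5 mouse pancreas libraries, out of 27998 genes in the tables. The genes were chosen by name for their roles and not by a rule on measured values, though with earlier results of these data known: 4 carriers (Slc2a1, Slc2a3, Slc16a1, Slc16a3), 17 glycolytic enzymes, 3 regulators (Pfkfb3, Pfkfb4, Pdk1), 5 hypoxia targets (Bnip3, Adm, Car9, Ndrg1, Egln3) and 3 further genes induced by hypoxia-inducible factor, HIF (Ero1l, Ankrd37, P4ha1). All 32 were present in the tables. The libraries were 10x Genomics 3' single-cell libraries, 1 for each group, from untreated mice: normal pancreas at 60 days, an early KIC tumour at 40 days, a late KIC tumour at 60 days, a late KPfC tumour at 60 days and a late KPC tumour at 6 months. The late KPfC mouse was C57BL/6, and the other 4 groups had a mixed background of C57BL/6 with FVB. The labels name the models and give no alleles, no Cre driver and no number of animals. By common use of these names, all 3 models use Cre in the pancreas and differ in a tumour suppressor, with loss of Cdkn2a in KIC, loss of floxed Trp53 in KPfC and a mutant Trp53 in KPC. Genotype, age, strain, sex and library therefore cannot be told apart, and no test between conditions was possible. Intervals in parentheses are exact, at 95%, and cover counting error only.

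Glycolysis breaks glucose down to pyruvate in the cytosol. Glucose enters through carriers of the Slc2a family, hexokinases trap it, phosphofructokinases commit it, and lactate dehydrogenase turns pyruvate into lactate, which leaves through carriers of the Slc16a family. When oxygen falls, the prolyl hydroxylases stop marking HIF alpha subunits for destruction by Vhl, and HIF then induces most of these enzymes together with genes that serve other ends. Pancreatic ductal tumours are dense, poorly perfused tissues in which fibroblasts, macrophages and tumour cells share a low-oxygen space.

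Levels are given for 4 classes of cells, named from marker transcripts after clustering. Epithelial or tumour-like cells, called epithelial-like below, numbered 9 in normal pancreas and then 355, 281, 495 and 61 in early KIC, late KIC, late KPfC and late KPC. In the order of the 5 libraries there were 50, 765, 298, 1749 and 524 macrophage-like, 442, 1389, 85, 183 and 102 fibroblast-like, and 104, 25, 27, 42 and 99 T or NK-like cells. Each class carried its own markers in every library, and the T or NK-like cluster was led by the mast cell genes Mcpt1 and Mcpt2 beside Cd3d and Nkg7. The 26 acinar secretory genes summed to between 35191 and 108475 CPM (UMIs of a gene for each 1000000 UMIs of the class) in macrophage-like, fibroblast-like and T or NK-like cells of normal pancreas and early KIC. In the same classes of the 3 late libraries the list summed to 337 CPM or less. With these, haemoglobin and mitochondrial UMIs left out of the totals, the number of members past 2-fold stayed within 1.5 times in every comparison below. Ranks of classes below leave out a class with under 30 cells. The libraries held 938 to 3534 barcodes and 3488871 to 26749820 UMIs, and 10718 cells were kept. Xist and Y-linked UMIs occurred together in normal pancreas and late KIC, while early KIC and late KPC held Xist with 4 and 0 Y-linked UMIs and late KPfC held 3203 Y-linked UMIs with 1 of Xist. Median UMIs per cell in the classes with at least 30 cells ran from 914 to 20988. Between 13 and 40 barcodes of a library also occurred in another. The epithelial-like class was of cluster C10 in early KIC (348 cells), C14 in late KIC (245) and C4 in late KPfC (485) and late KPC (60).

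The 4 hypoxia targets with a RefSeq promoter entry on GRCm38.p6 are shown first, because the values below turn on how differently they behaved. Each line gives the 250 bases before the annotated start, 5' to 3' on the gene's strand. Capitals mark the HIF core motif, ACGTG or GCGTG, on either strand, so that CACGT and CACGC mark the core on the opposite strand.
Bnip3, chr7:138909507-138909756, minus strand: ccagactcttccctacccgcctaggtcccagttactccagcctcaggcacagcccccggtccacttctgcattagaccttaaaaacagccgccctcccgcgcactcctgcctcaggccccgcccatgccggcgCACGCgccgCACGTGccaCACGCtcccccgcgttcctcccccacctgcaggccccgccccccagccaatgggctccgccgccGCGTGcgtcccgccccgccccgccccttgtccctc
Adm, chr7:110627407-110627656, plus strand: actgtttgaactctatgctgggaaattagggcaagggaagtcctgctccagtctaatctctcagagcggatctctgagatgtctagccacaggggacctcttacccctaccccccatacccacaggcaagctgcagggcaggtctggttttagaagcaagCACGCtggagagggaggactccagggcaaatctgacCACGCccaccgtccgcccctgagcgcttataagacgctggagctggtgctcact
Car9, chr4:43506776-43507025, plus strand: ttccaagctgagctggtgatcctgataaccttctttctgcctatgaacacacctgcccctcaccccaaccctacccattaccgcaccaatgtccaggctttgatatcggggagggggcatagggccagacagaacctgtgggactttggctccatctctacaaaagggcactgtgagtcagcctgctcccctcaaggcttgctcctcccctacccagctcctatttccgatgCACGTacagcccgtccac
Egln3, chr12:54203875-54204124, minus strand: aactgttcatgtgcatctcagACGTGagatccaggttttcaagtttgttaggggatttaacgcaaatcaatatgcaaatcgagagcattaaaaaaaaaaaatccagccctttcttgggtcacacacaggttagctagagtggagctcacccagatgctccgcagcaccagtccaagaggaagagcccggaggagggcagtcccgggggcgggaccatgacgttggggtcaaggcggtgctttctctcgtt

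The 4 windows differed in number and place of the cores. Bnip3 held 5 cores, 4 of them between 99 and 117 bases before the start and in part overlapping. Adm held 2 cores, 90 and 54 bases before its start, Car9 held 1 at 18 bases, and Egln3 held 1 at 229 bases. RefSeq entries were found for 29 of the 32 genes. Ndrg1, Slc2a3 and Ero1l had no entry. At least 1 core was present in 34 of 42 promoters of the 32 genes (81%) and in 12679 of 32851 promoters of all genes (38.6%). The share was 80% over 15 promoters of the tricarboxylic acid (TCA) cycle list and 75% over 8 of the pentose phosphate list. It was 71.4% over 7 promoters of the HIF pathway list and 60% over 15 of a list of further hypoxia-induced genes. Over 7 promoters of the oxidative phosphorylation list it was 42.9%. A short match of this kind is a description of the letters and not of binding.

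The 17 glycolytic enzymes took up more of the transcriptome in the epithelial, macrophage and fibroblast classes of the 3 late tumours than in the same class of normal pancreas or early KIC. In epithelial-like cells their summed level was 2520.0 CPM (2416 to 2627) in early KIC, 10152 CPM (10081 to 10224) in late KIC, 6412 CPM (6351 to 6473) in late KPfC, and late KPC had 5630.2 CPM (5387 to 5881). Macrophage-like cells held 1521 CPM (1358 to 1698) in normal pancreas and 3352 CPM (3260.2 to 3446) in early KIC. In the late tumours the macrophage-like sums were 7150.5 CPM (7045 to 7257) in late KIC, 7409 CPM (7365 to 7454) in late KPfC, and late KPC had 5398 CPM (5281 to 5516). Fibroblast-like cells stayed close to each other in normal pancreas and early KIC and stood higher in every late tumour: 1975, 2006, 5565, 4623 and 3398 CPM in the order of the libraries. The T or NK-like sums were 2288 CPM in normal pancreas, 4641 in late KPfC and 1726 in late KPC.

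Oxidative phosphorylation, the mitochondrial use of oxygen, spanned a narrower range. The 12 genes of that list summed to between 5601 and 6661 CPM in epithelial-like cells of the 4 tumours and to between 3013 and 6270 CPM in macrophage-like cells of all 5 libraries. The largest step of the enzyme sum, late over early KIC in epithelial-like cells, had no counterpart there, since the oxidative phosphorylation sum was 6479.8 CPM in early KIC and 5601 in late KIC. The TCA cycle list lay between 566 and 1074 CPM in the epithelial, macrophage and fibroblast classes with at least 30 cells.

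The 5 hypoxia targets followed another order. Their sum was highest in fibroblast-like cells in normal pancreas, at 576 CPM (546 to 607), and in early KIC, at 376 CPM (354 to 399.9), where the enzymes were low. The class there was mostly of clusters C17 and C5 (normal pancreas) or C1 and C5 (early KIC), which held few or no late tumour cells. In macrophage-like cells of those libraries the sum was 48 CPM (23 to 88.2) and 101 CPM (85.9 to 119). The fibroblast-like sums of the late tumours lay below that of normal pancreas and above that of early KIC. Late KIC was the nearest of them to early KIC. Epithelial-like cells held 93 CPM (73.9 to 115) in early KIC, 329 CPM (316 to 342) in late KIC, 329 CPM (316 to 343) in late KPfC, and late KPC had 489 CPM (419 to 567). Fibroblast-like cells exceeded epithelial-like cells 4.05-fold (3.23 to 5.13) in early KIC, 1.24-fold (1.13 to 1.36) in late KIC and 1.34-fold (1.25 to 1.44) in late KPfC, and the ratio in late KPC was 0.991 (0.812 to 1.21), an interval that includes 1. By CPM the enzymes were higher in epithelial-like cells in all 4 pairs, with epithelial-like over fibroblast-like enzyme ratios of 1.26-fold (1.2 to 1.32), 1.82-fold (1.78 to 1.87), 1.39-fold (1.36 to 1.42) and 1.66-fold (1.55 to 1.77) in early KIC, late KIC, late KPfC and late KPC. Median-of-ratios scaling moved the early KIC log2 target ratio of fibroblast-like over epithelial-like cells from 2.02 to 2.45. Such scaling moves all genes of a pair alike, here by more than the 1.26-fold enzyme ratio. The direction of the enzymes in early KIC therefore depended on the scaling.

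**Figure D1:**
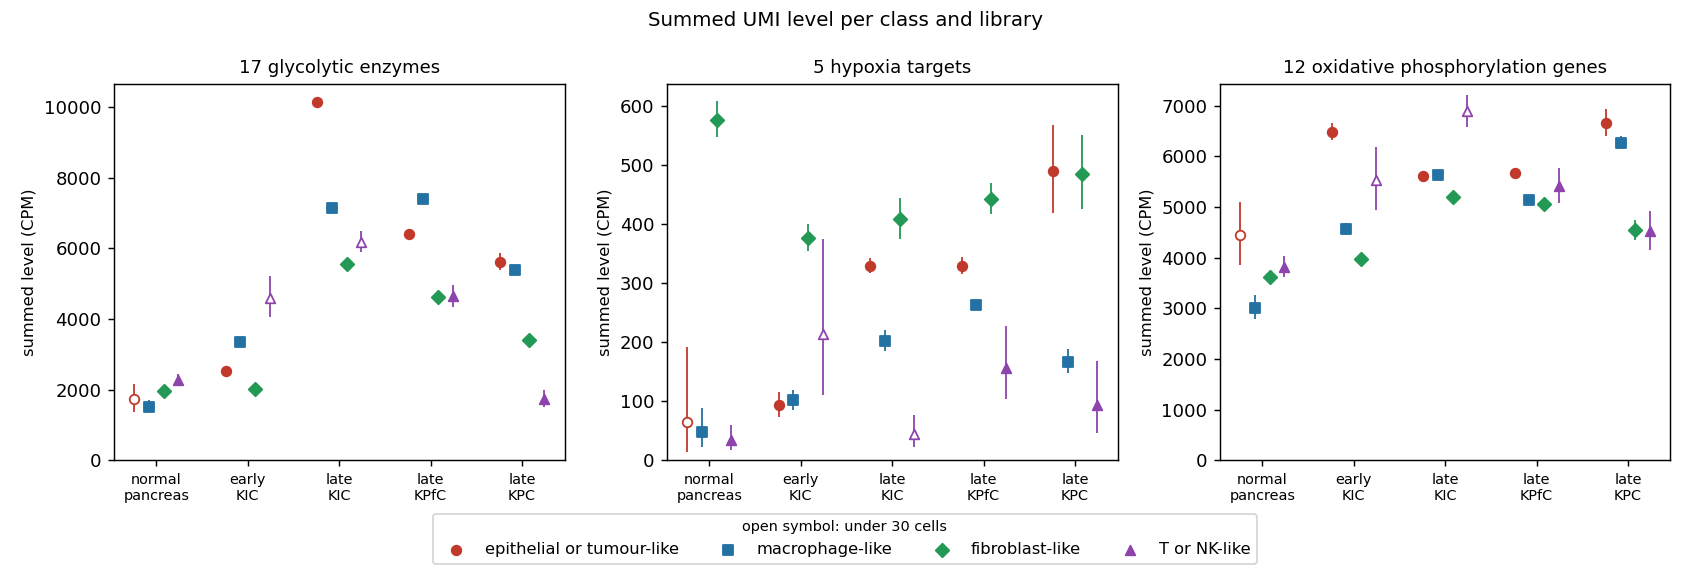
Summed level in CPM of the 17 glycolytic enzymes, 5 hypoxia targets and 12 oxidative phosphorylation genes, by library (x axis) and class (colour and symbol), with exact Poisson intervals at 95%; open symbols stand for classes with fewer than 30 cells. The enzyme sums are higher in the late tumours, the hypoxia targets are highest in fibroblast-like cells of normal pancreas, and the oxidative phosphorylation sums vary less.

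Most hypoxia target UMIs of fibroblast-like cells in these 2 libraries were of 1 gene. Adm, which encodes the vasodilator peptide adrenomedullin, gave 66.2% (63.6 to 68.7) of the hypoxia target UMIs of fibroblast-like cells in normal pancreas and 57.9% (54.8 to 60.9) in early KIC, and 13.1% (10.4 to 16.2), 6.53% (5.15 to 8.14) and 11.5% (7.71 to 16.3) in late KIC, late KPfC and late KPC. Without Adm the fibroblast sum was 195 CPM in normal pancreas, 159 in early KIC, 354 in late KIC, 413 in late KPfC and 429 in late KPC, an order like that of the enzymes in that the 3 late tumours stood above the other 2 libraries.

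Among the carriers, Slc2a1 (GLUT1, the basal glucose carrier) was higher in the late tumours in the epithelial, macrophage and fibroblast classes. Its levels in epithelial-like cells were 27.2 CPM in early KIC, 97 in late KIC, 85.7 in late KPfC and 106 in late KPC. Macrophage-like cells had 33.6 CPM in normal pancreas, 28.7 in early KIC, 89.8 in late KIC, 74 in late KPfC and 96.4 in late KPC. Epithelial and macrophage levels in the late tumours lay close together, and fibroblast-like cells were lower there, at 36.8, 39.5 and 45.4 CPM in late KIC, late KPfC and late KPC. Slc2a3 (GLUT3, a high-affinity glucose carrier) did not pass 22.7 CPM in any class or library, its level in fibroblast-like cells of late KPC. Fibroblast-like cells had 1.66 CPM in normal pancreas, 4.72 in early KIC, 10.1 in late KIC, 6.32 in late KPfC and 22.7 in late KPC of Slc2a3.

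The lactate carriers divided by class. Slc16a3 (MCT4, the carrier known for lactate export) was found in macrophage-like cells at 19.2 CPM in normal pancreas, 38 in early KIC, 139 in late KIC, 134 in late KPfC and 179 in late KPC, and macrophage-like cells were the highest class in all 4 tumours. In epithelial-like cells of early KIC it had 0 UMIs among 882133, which allows up to 3.4 CPM at a limit of 3 UMIs (the exact interval ends at 4.18 CPM), and it then reached 121 CPM in late KIC, 43.7 in late KPfC and 69.8 in late KPC. Fibroblast-like cells went from 3.63 CPM in early KIC to 60.6 in late KIC. Slc16a1 (MCT1, which carries lactate either way) was highest in fibroblast-like cells in all 5 libraries, at 41.5 CPM in normal pancreas, 35.6 in early KIC, 26.7 in late KIC, 47 in late KPfC and 70.1 in late KPC, although in late KIC epithelial-like cells were at 26.3 CPM. Of the UMIs of these lactate carriers, Slc16a3 gave 90.2% (86.7 to 93) in macrophage-like cells of late KIC and 9.26% (4.53 to 16.4) in fibroblast-like cells of early KIC.

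The hexokinases, which trap glucose in the cell, were led by different classes. Hk2, the inducible form, was the larger share of hexokinase UMIs in the epithelial, macrophage and fibroblast classes of every library in which they were counted. In fibroblast-like cells Hk2 was at 278 CPM in normal pancreas, 324 in early KIC, 526 in late KIC, 138 in late KPfC and 307 in late KPC. Macrophage-like cells had 76.8 CPM in normal pancreas, 247 in early KIC, 268 in late KIC, 333 in late KPfC and 234 in late KPC, the lowest of them in normal pancreas. Epithelial-like cells stood below both in early KIC and reached 142 CPM in late KIC, 128 in late KPfC and 478 in late KPC, so that late KPC was the one library with Hk2 highest in that class. Hk1, the constitutive form, was highest in epithelial-like cells of the 3 late tumours, at 46.5, 44.1 and 53.1 CPM, against 12.5 in early KIC. Fibroblast-like cells had 17.9 CPM in normal pancreas, 17.4 in early KIC, 11.5 in late KIC, 25.3 in late KPfC and 16.5 in late KPC of Hk1.

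Gpi1, the isomerase of the next step, was highest in macrophage-like cells in all 4 tumours, at 149 CPM in early KIC, 421 in late KIC, 515 in late KPfC and 331 in late KPC, after 129.5 in normal pancreas. The phosphofructokinases, which commit sugar to glycolysis, divided by class. Pfkp, the platelet form, was highest in macrophage-like cells of the 4 tumours, at 44 CPM in early KIC, 66.2 in late KIC, 73 in late KPfC and 84.5 in late KPC. Fibroblast-like cells, by contrast, held the most Pfkp in normal pancreas, with 73.1 CPM in normal pancreas, 34.1 in early KIC, 24.5 in late KIC, 37.5 in late KPfC and 24.7 in late KPC. Pfkl, the liver form, had 49.9 CPM in early KIC, 97.3 in late KIC, 79.4 in late KPfC and 86.6 in late KPC in epithelial-like cells, the highest class in each tumour but late KPfC. In macrophage-like cells Pfkl was lowest in normal pancreas and highest in late KPfC, with 9.6 CPM in normal pancreas, 29.4 in early KIC, 66.2 in late KIC, 88.1 in late KPfC and 43.6 in late KPC. Pfkm, the muscle form, stayed at or below 10.3 CPM in the classes and was highest in fibroblast-like cells of the 4 libraries in which it had enough UMIs to rank, at 9.14 CPM in normal pancreas, 7.98 in early KIC, 8.66 in late KIC, 6.71 in late KPfC and 10.3 in late KPC.

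The abundant enzymes of the lower pathway carried most of the sums. A 3' library counts transcript ends, so these levels do not grow with transcript length. Gapdh, which makes the first NADH of the pathway, had 533 CPM in early KIC, 2613 in late KIC, 2154 in late KPfC and 1664 in late KPC in epithelial-like cells. In macrophage-like cells Gapdh had 336 CPM in normal pancreas, 792 in early KIC, 2056 in late KIC, 2071 in late KPfC and 1332 in late KPC. In the late tumours fibroblast-like cells lay below both, and over all libraries their Gapdh was between 322 CPM in normal pancreas and 1201 in late KIC. Pkm, the pyruvate kinase gene whose splice forms a 3' count does not separate, had 96.4 CPM in early KIC, 1686 in late KIC, 989.9 in late KPfC and 606 in late KPC in epithelial-like cells. Macrophage-like cells had 187 CPM in normal pancreas, 338 in early KIC, 810.2 in late KIC, 699 in late KPfC and 547 in late KPC, a narrower span than the epithelial one. Ldha, which turns pyruvate into lactate, had 207 CPM in early KIC, 1339.6 in late KIC, 609 in late KPfC and 788 in late KPC in epithelial-like cells and 534, 953 and 453 CPM in T or NK-like cells of normal pancreas, late KPfC and late KPC. Among the tumours, late KPfC was the library with Ldha highest in T or NK-like cells, 1.19-fold (1.01 to 1.38) above the next class.

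Aldoa, the main aldolase, ranged in the 4 classes from 162 CPM in T or NK-like cells of late KPC to 1249 in epithelial-like cells of late KIC. Macrophage-like cells had 259 CPM in normal pancreas, 432 in early KIC, 821 in late KIC, 798 in late KPfC and 741 in late KPC. Tpi1, the triose isomerase, was highest in epithelial-like cells of all 4 tumours, at 201 CPM in early KIC, 582 in late KIC, 498 in late KPfC and 508 in late KPC. Fibroblast-like cells had 99.3 CPM in normal pancreas, 79.1 in early KIC, 393 in late KIC, 311 in late KPfC and 204 in late KPC, so that Tpi1 was higher in the late tumours in both. Pgam1, the mutase of the pathway, was highest in macrophage-like cells of early KIC, late KPfC and late KPC and in epithelial-like cells of late KIC, at 482 CPM. Its macrophage levels were 62.4 CPM in normal pancreas, 137 in early KIC, 359.8 in late KIC, 451 in late KPfC and 522 in late KPC. Eno1, the main enolase, and Pgk1, the first ATP-yielding kinase, were lower in late KPC than in late KPfC in all 4 classes. Eno1 had 758 CPM in early KIC, 1216 in late KIC, 529 in late KPfC and 207 in late KPC in epithelial-like cells, and 173 CPM in normal pancreas, 472 in early KIC, 804 in late KIC, 985 in late KPfC and 384 in late KPC in macrophage-like cells. Pgk1 had 21.5 CPM in early KIC, 353 in late KIC, 183 in late KPfC and 55.9 in late KPC in epithelial-like cells. Its macrophage levels were 43.2 CPM in normal pancreas, 40.0 in early KIC, 142 in late KIC, 207 in late KPfC and 50.2 in late KPC. Macrophage Pgk1 in late KPC was thus close to that of normal pancreas and early KIC, unlike macrophage Gapdh and Pgam1.

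The second isozymes of aldolase, enolase and lactate dehydrogenase included the members that were lower in late than in early KIC in the epithelial class. Aldoc, the brain-type aldolase, had 103 CPM in early KIC, 4.88 in late KIC, 16.3 in late KPfC and 14 in late KPC in epithelial-like cells, and made up 25.9% (21.4 to 30.8) of their aldolase UMIs in early KIC and 0.39% (0.274 to 0.537) in late KIC. In macrophage-like cells Aldoc was higher in late KIC, with 0 CPM in normal pancreas, 4.67 in early KIC, 27 in late KIC, 19.4 in late KPfC and 21.8 in late KPC. Ldhb, the form known for turning lactate back into pyruvate, had 41.9 CPM in early KIC, 1.72 in late KIC, 9.94 in late KPfC and 33.5 in late KPC in epithelial-like cells. Its share of lactate dehydrogenase UMIs there was 16.8% (12.1 to 22.4) in early KIC and 0.128% (0.0681 to 0.219) in late KIC. Fibroblast-like cells held the most Ldhb in every library but early KIC, with 46.9 CPM in normal pancreas, 29 in early KIC, 85.2 in late KIC, 199 in late KPfC and 134 in late KPC. Their Ldhb share reached 27.8% (25.7 to 29.9) in late KPfC. Eno2, the neuronal enolase, stayed at or below 14.4 CPM and was highest in fibroblast-like cells of early KIC, late KIC and late KPfC, with 4.15 CPM in normal pancreas, 7.98 in early KIC, 14.4 in late KIC, 11.1 in late KPfC and 14.4 in late KPC.

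The regulators were low. Pfkfb3, which makes the activator of phosphofructokinase, was the member whose macrophage level was lower in the tumours than in normal pancreas, with 62.4 CPM in normal pancreas, 40.0 in early KIC, 17.6 in late KIC, 20.2 in late KPfC and 10.6 in late KPC. Pfkfb4, its relative, was between 1.72 and 11.2 CPM in the tumour epithelial, macrophage and fibroblast classes, and fibroblast-like cells had 7.48 CPM in normal pancreas, 4.35 in early KIC, 5.77 in late KIC, 5.13 in late KPfC and 8.25 in late KPC. Pdk1, which holds pyruvate back from the mitochondrion, had 28.3 CPM in early KIC, 30.4 in late KIC, 21.2 in late KPfC and 30.7 in late KPC in epithelial-like cells and 4.8 CPM in normal pancreas, 4.67 in early KIC, 15.1 in late KIC, 28.9 in late KPfC and 17.2 in late KPC in macrophage-like cells. Unlike the enzymes, Pdk1 was level between early and late KIC in the epithelial class.

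The hypoxia targets differed in the class that held them. Adm was highest in fibroblast-like cells of all 5 libraries, with 381 CPM in normal pancreas, 218 in early KIC, 53.4 in late KIC, 28.8 in late KPfC and 55.7 in late KPC. The epithelial, macrophage and T or NK-like classes with at least 30 cells did not pass 19.5 CPM. The fibroblast level was highest in normal pancreas, next in early KIC, and lower in all 3 late tumours. Egln3, the prolyl hydroxylase PHD3 that feeds back on HIF, was low in the same cells of the libraries in which Adm was high, with 0.831 CPM in normal pancreas, 1.09 in early KIC, 53.4 in late KIC, 96.8 in late KPfC and 129.9 in late KPC. In macrophage-like cells Egln3 had 0 CPM in normal pancreas, 0.667 in early KIC, 15.5 in late KIC, 37.6 in late KPfC and 15.8 in late KPC, and epithelial-like cells had 3.4 CPM in early KIC, 23.4 in late KIC, 34 in late KPfC and 69.8 in late KPC. Fibroblast-like cells were the highest class for Egln3 in each of the 3 late tumours.

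Car9, the surface carbonic anhydrase that removes acid from cells, was highest in epithelial-like cells in each of the 3 late tumours. Its levels there were 1.13 CPM in early KIC, 9.77 in late KIC, 108 in late KPfC and 41.9 in late KPC. Fibroblast-like cells had 0.831 CPM in normal pancreas, 1.09 in early KIC, 8.66 in late KIC, 25.7 in late KPfC and 14.4 in late KPC, and the macrophage-like levels ran from 0 to 5.34 CPM over the 5 libraries. Bnip3, which acts in the removal of mitochondria, had 24.9 CPM in early KIC, 162 in late KIC, 57.4 in late KPfC and 75.4 in late KPC in epithelial-like cells. Macrophage-like cells had 14.4 CPM in normal pancreas, 14.7 in early KIC, 115 in late KIC, 112 in late KPfC and 77.9 in late KPC and fibroblast-like cells 49 CPM in normal pancreas, 14.9 in early KIC, 59.2 in late KIC, 69.1 in late KPfC and 55.7 in late KPC. Bnip3 shared with the enzymes a lower level in early than in late KIC in all 3 classes, although the fibroblast difference turned when cells were thinned to 1000 UMIs. Ndrg1, a stress-induced gene of differentiation, had a narrower range in fibroblast-like cells, with 144 CPM in normal pancreas, 141 in early KIC, 233 in late KIC, 221 in late KPfC and 229 in late KPC. In epithelial-like cells Ndrg1 had 57.8 CPM in early KIC, 117 in late KIC, 124 in late KPfC and 282 in late KPC, highest in late KPC.

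**Figure D2:**
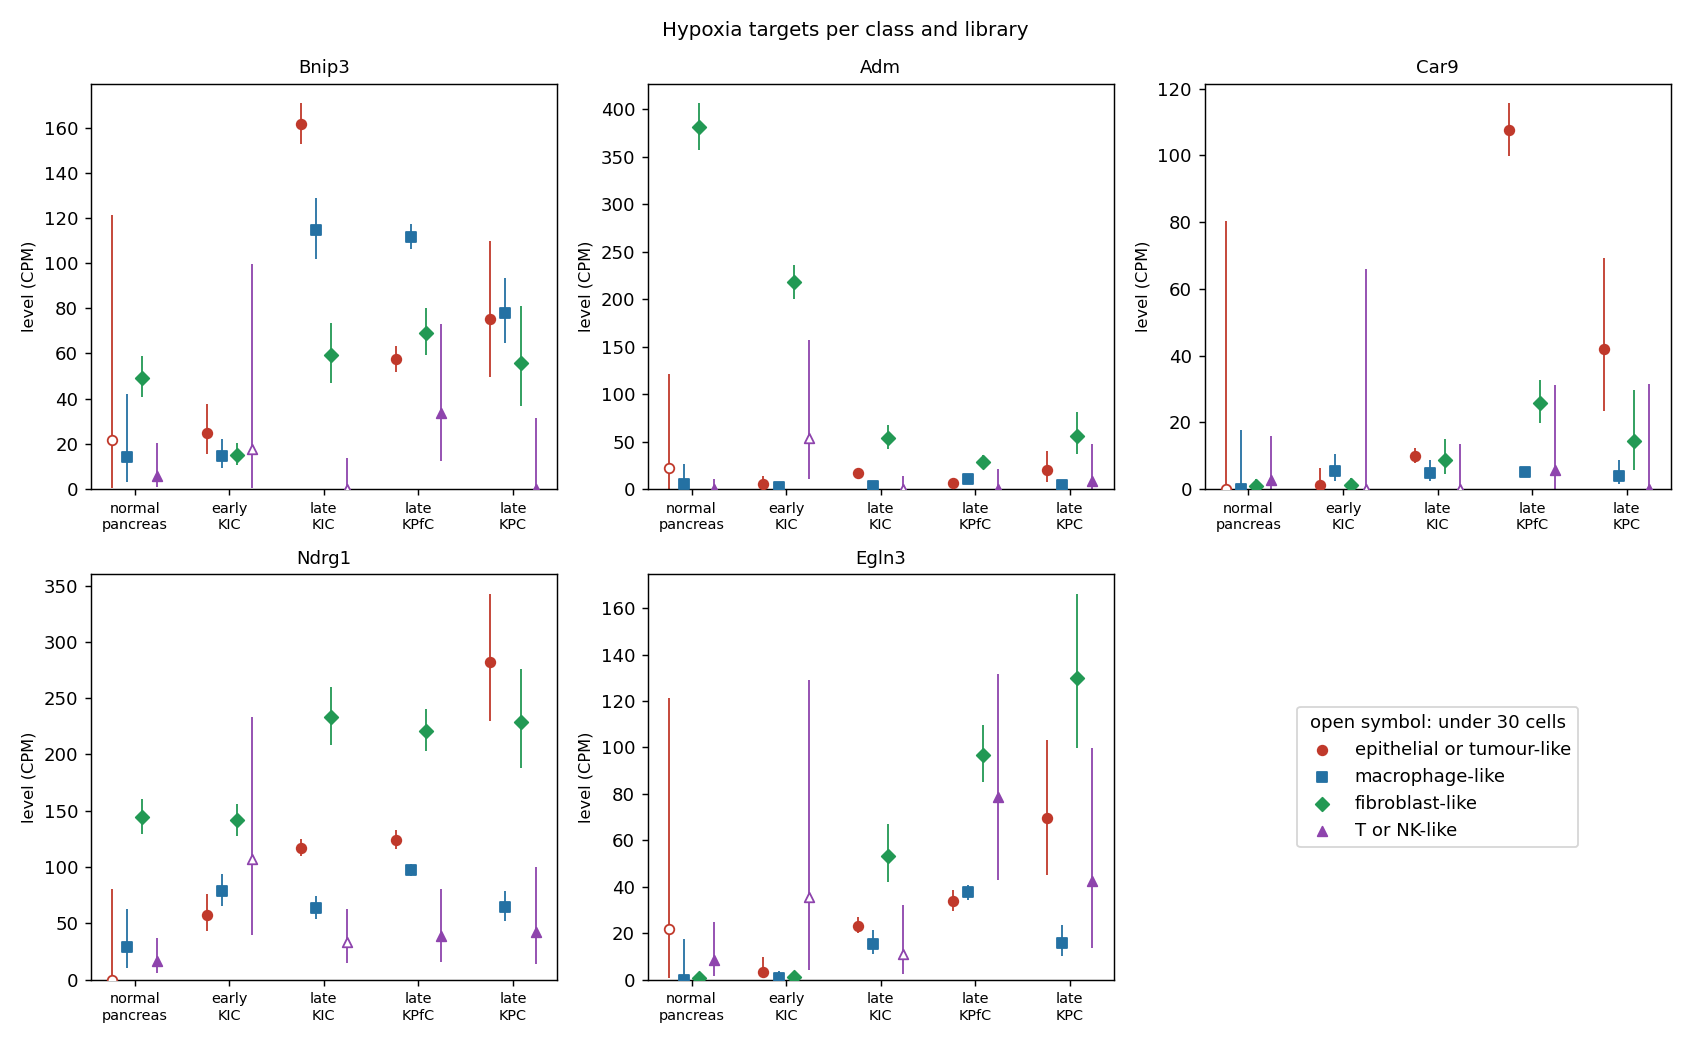
Level in CPM (y axis, from 0) of each of the 5 hypoxia targets by library (x axis) and class (colour and symbol), with exact Poisson intervals at 95%; open symbols stand for fewer than 30 cells. In fibroblast-like cells Adm goes from 381 CPM in normal pancreas to 28.8 in late KPfC while Egln3 goes from 0.831 to 96.8, and Car9 is highest in epithelial-like cells of late KPfC.

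Of the other HIF-induced members, Ero1l, an oxidase of protein folding in the endoplasmic reticulum, reached similar levels in macrophage-like cells of late KPfC and epithelial-like cells of late KPC. It had 9.6 CPM in normal pancreas, 22.7 in early KIC, 68.6 in late KIC, 157 in late KPfC and 102 in late KPC in macrophage-like cells and 9.07 CPM in early KIC, 80.7 in late KIC, 87.8 in late KPfC and 159 in late KPC in epithelial-like cells. Ankrd37, an ankyrin-repeat gene, was highest in epithelial-like cells of all 4 tumours, with 14.7 CPM in early KIC, 50.2 in late KIC, 23 in late KPfC and 19.5 in late KPC. P4ha1, a collagen prolyl hydroxylase, was highest in fibroblast-like cells of all 5 libraries and varied little there, with 86.4 CPM in normal pancreas, 95.8 in early KIC, 112 in late KIC, 98.7 in late KPfC and 74.2 in late KPC.

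No class was highest for all members in any library. As above, a class was ranked only with at least 30 cells, and a member where its class sums held at least 20 UMIs together. In normal pancreas, where the epithelial class had too few cells, 13 of 23 ranked members were highest in fibroblast-like cells (all genes ranked, 51.3%), 7 in T or NK-like (all genes 30%) and 3 in macrophage-like cells (all genes 18.7%). In early KIC, macrophage-like cells led with 12 of 30 members (all genes 18.3%), and epithelial-like (all genes 54.7%) and fibroblast-like cells (all genes 27%) had 9 each. Late KIC had 17 of 32 in epithelial-like (all genes 45.7%), 11 in fibroblast-like (all genes 29.4%) and 4 in macrophage-like cells (all genes 24.9%). In late KPfC the macrophage-like cells led with 14 of 32 (all genes 16%), followed by fibroblast-like with 9 (all genes 26.1%), epithelial-like with 8 (all genes 33.5%) and T or NK-like with 1, Ldha (all genes 24.3%). Late KPC had 15 of 29 in epithelial-like (all genes 35.4%), 8 in macrophage-like (all genes 20.6%) and 6 in fibroblast-like cells (all genes 18.7%). Set against these shares of all genes, the members stood above the background for macrophage-like cells in early KIC and late KPfC, and near it for epithelial-like cells in late KIC. They also stood above it for epithelial-like cells in late KPC, a count that moved with the processing. They stood below it for epithelial-like cells in early KIC, macrophage-like cells in late KIC and T or NK-like cells in late KPfC.

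In late KIC and late KPfC the class highest for most enzymes was not the class highest for most hypoxia targets. Of the 17 enzymes in late KIC, 10 (58.8%) were highest in epithelial-like cells, not far above the share of all genes (45.7%). In late KPfC 9 of 17 were highest in macrophage-like cells (all genes, 16%). Of the 5 hypoxia targets, 3 were highest in fibroblast-like cells in both libraries (all genes, 29.4% in late KIC and 26.1% in late KPfC). In late KPC epithelial-like cells led 8 of 15 enzymes and 2 of 5 targets, Car9 and Ndrg1 (all genes, 35.4%), beside Adm and Egln3 in fibroblast-like cells (all genes, 18.7%). In normal pancreas fibroblast-like cells led 8 of 15 enzymes, near the share of all genes (51.3%), and 3 of 3 targets. The enzyme sum there was higher in T or NK-like than in fibroblast-like cells. Over all members the epithelial count of late KIC was 9 without the mesenchymal cluster (C14), and that of late KPC was 7 with every cell thinned to 1000 UMIs. Of 27 members ranked in all 4 tumours, Tpi1 and Ankrd37 were highest in epithelial-like cells in each (all genes, 12.9%), Slc16a3, Gpi1 and Pfkp in macrophage-like cells (8.97%) and Slc2a3, Slc16a1, Adm and P4ha1 in fibroblast-like cells (7.45%). The enzyme sum of epithelial-like over macrophage-like cells was 1.42-fold (1.4 to 1.44) in late KIC, 1.04-fold (0.993 to 1.1) in late KPC, and macrophage-like cells were higher in early KIC, 1.33-fold (1.27 to 1.4), and in late KPfC, 1.16-fold (1.14 to 1.17). Without C14 the log2 ratio of late KIC was -0.24 in place of 0.51. In late KPC the log2 ratio was 0.06, and -0.34, -0.21 and -0.19 under median-of-ratios scaling, as a mean of each cell's own CPM and with thinned cells.

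The KIC model was sampled at 40 and at 60 days, and its late library was compared with its early one. A member was compared where both libraries together held at least 20 UMIs, and called at 2-fold. In epithelial-like cells 23 of 30 members were higher (all genes, 13.5%) and 2 were lower (all genes, 27.3%). The median log2 ratio of the 17 enzymes was 1.84 beside -0.33 over all genes compared, and that of the 5 hypoxia targets was 2.70. Pkm was 17.5-fold (14.1 to 21.9) higher, Pgk1 16.4-fold (10.5 to 27.3), Pgam1 7.32-fold (5.65 to 9.66) and Ldha 6.46-fold (5.58 to 7.52). Slc16a3 was at least 28.9-fold higher, the lower end of the interval around 35.6-fold against 3 UMIs in place of the 0 counted. Among the targets, Bnip3 was 6.48-fold (4.26 to 10.4) higher and Egln3 6.87-fold (2.31 to 33.6). The lower pair was Aldoc, 21.1-fold (14.3 to 31.8), and Ldhb, 24.4-fold (12.7 to 50.1). The class was made up mostly of cluster C10 in early KIC and of C14 in late KIC, and 5 of 12 dissociation stress genes were 2-fold lower in late KIC, whose part was not tested. Eno1 moved less than its neighbours in the pathway, from 758 to 1216 CPM.

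In macrophage-like cells 15 of 28 members were higher in late KIC (all genes, 10.4%) and 1, Pfkfb3, was 2.28-fold (1.52 to 3.45) lower (all genes, 8.64%). Bnip3 was 7.82-fold (5.06 to 12.7) higher, Aldoc 5.77-fold (2.65 to 14.9), Slc16a3 3.65-fold (2.75 to 4.92) and Slc2a1 3.13-fold (2.25 to 4.45). The medians were 1.17 for 15 enzymes and 1.42 for 4 targets, beside 0.08 for all genes. The early KIC cells were mostly of clusters C6 (550) and C18 (209) and the late KIC cells of C3 (165) and C7 (115), with 0 late KIC cells in C6 or C18, and the part of this was not tested. In fibroblast-like cells 15 of 29 were higher (all genes, 7.79%) and 1, Adm, was 4.08-fold (3.2 to 5.26) lower (all genes, 16.2%). Egln3 was 49.1-fold (16.1 to 243) higher, Slc16a3 16.7-fold (8.65 to 36.1), Tpi1 4.96-fold (4.23 to 5.84) and Eno1 4.74-fold (4.17 to 5.41). The fibroblast medians were 1.46 for 16 enzymes and 1.36 for 4 targets, beside -0.14 for all genes. With cells thinned to 1000 UMIs, 10 fibroblast members passed 2-fold in either direction in place of 16 (early KIC cells were mostly of clusters C1 and C5, late KIC cells of C15 and C12), and the log2 ratio of Bnip3 was -0.43 in place of 1.99.

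**Figure D3:**
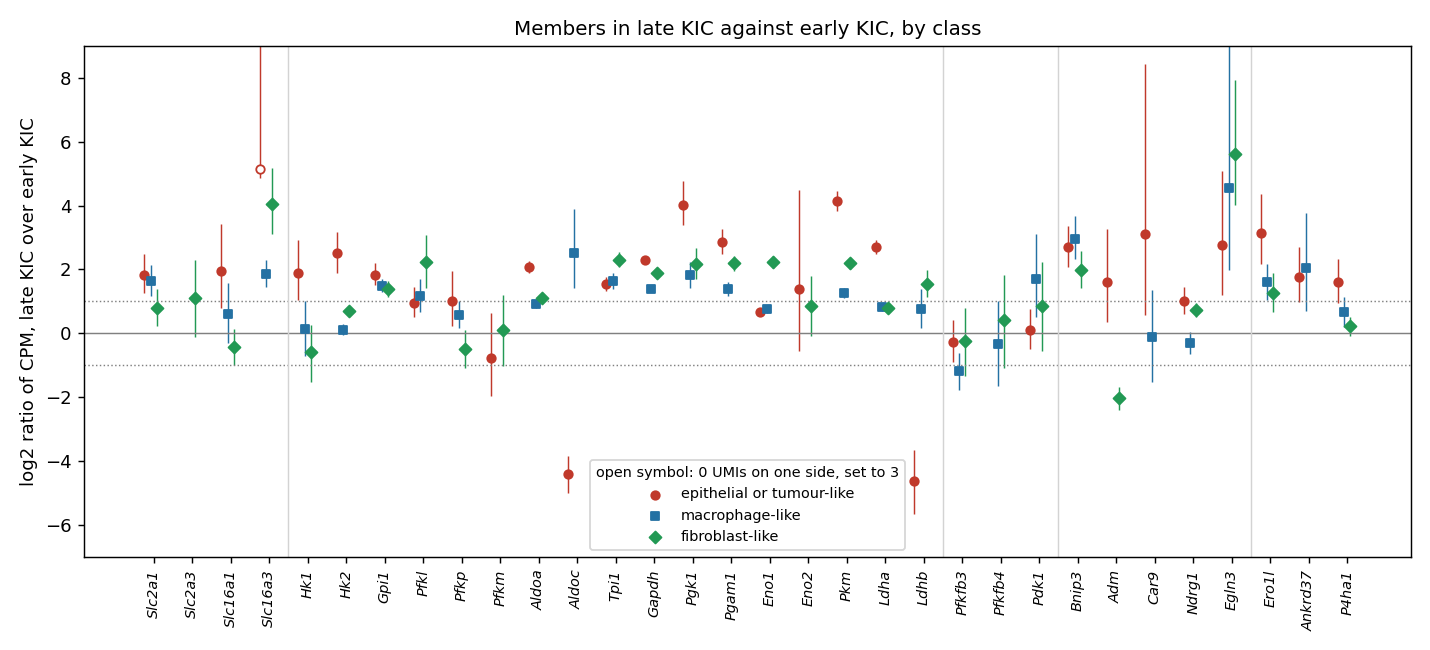
Log2 ratio of CPM, late KIC over early KIC (y axis), for each member compared (x axis, grouped by role between the grey vertical lines) in 3 classes, with exact intervals at 95% (some run off the axis); dotted lines mark 2-fold, and the open symbol is Slc16a3, with 0 UMIs on one side set to 3. Most points lie above 0; Aldoc and Ldhb in epithelial-like cells, Adm in fibroblast-like cells and Pfkfb3 in macrophage-like cells pass 2-fold below it.

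Early KIC was set against normal pancreas in the classes present in both. In macrophage-like cells 10 of 21 members were higher (all genes, 16.9%) and 0 lower (all genes, 6.35%). Ldha was 3.41-fold (2.39 to 5.02) higher, Hk2 3.22-fold (1.95 to 5.69), Eno1 2.73-fold (1.95 to 3.93) and Gapdh 2.36-fold (1.85 to 3.05). Only 50 macrophage-like cells came from normal pancreas, and the count was 6 with cells thinned or with each library clustered alone. Of these, 25 were of cluster C18 and 23 of C6, while early KIC had 209 and 550, and within early KIC the enzyme sum of C18 was the lower one, 1429.8 against 3914 CPM. The part of the cluster mix was not tested. The haemoglobin RNA of the normal cells was 27092 CPM against 3524 in early KIC, and with such UMIs left out of the totals the count remained at 10 members. Dissociation stress genes were 2-fold lower in early KIC for 6 of 12, and their part in the ratios was not tested. In fibroblast-like cells 1 of 26 members was higher (all genes, 7.35%), Slc2a1 2.67-fold (1.56 to 4.74). The 2 lower members (all genes, 5.36%) were Bnip3, 3.3-fold (2.29 to 4.82), and Pfkp, 2.14-fold (1.66 to 2.78). The fibroblast-like cells were mostly of C17 (232) and C5 (139) in normal pancreas and of C1 (769) and C5 (447) in early KIC, whose part was not tested. Settings moved the fibroblast count of 3 to as many as 6.

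Late KIC was set against late KPfC, both at 60 days but of different strain background. In epithelial-like cells 8 of 31 members were higher in late KIC (all genes, 9.48%) and 4 lower (all genes, 16.2%). Ldha was 2.2-fold (2.12 to 2.28) higher, Eno1 2.3-fold (2.21 to 2.39) and Bnip3 2.82-fold (2.51 to 3.17), while Car9 was 11-fold (8.66 to 14.2) lower and Ldhb 5.79-fold (3.17 to 11.4). Without the mesenchymal cluster C14, which held 245 of the 281 late KIC cells, 2 members passed 2-fold in place of 12. In macrophage-like cells 0 of 30 were higher (all genes, 6.24%) and 3 lower (all genes, 10.4%): Adm 3.82-fold (1.81 to 9.67), Egln3 2.43-fold (1.74 to 3.47) and Ero1l 2.29-fold (1.95 to 2.69). The late KIC cells were mostly of C3 and C7 and the late KPfC cells of C2 (728), C9 (415), C7 (390) and C21 (189), whose part was not tested, and 5 members passed 2-fold with cells thinned. In fibroblast-like cells 1 of 32 was higher (all genes, 5.18%), Hk2 3.82-fold (3.36 to 4.35), and 5 were lower (all genes, 12.9%), among them Ldhb 2.34-fold (1.91 to 2.89), Car9 2.96-fold (1.59 to 6.03) and Ero1l 2.9-fold (2.14 to 3.99). With cells thinned, 1 fibroblast member passed 2-fold in place of 6. Cluster C12, which carries mesothelial markers, held 160 of the 183 fibroblast-like cells of late KPfC and 36 of the 85 of late KIC, and its part was not tested.

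Late KPC was set against late KPfC, which differ in age, strain and sex-linked RNA as well as in model, with Xist at 2629 UMIs and 0 Y-linked UMIs in late KPC against 1 and 3203 in late KPfC. Pgk1 and Eno1 were lower in late KPC in all 4 classes. Pgk1 was 3.28-fold (2.12 to 5.4) lower in epithelial-like, 4.13-fold (3.29 to 5.26) in macrophage-like, 3.81-fold (2.27 to 6.88) in fibroblast-like and 3.72-fold (1.08 to 19.8) in T or NK-like cells. Eno1 was 2.56-fold (2.03 to 3.27) lower, 2.56-fold (2.36 to 2.79), 2.53-fold (2.03 to 3.21) and 10.5-fold (4.32 to 33.2) in the same order. Both genes have near copies that could share their reads: Pgk1-rs7 had 17 UMIs beside 117 of Pgk1 in late KPC and 148 beside 4686 in late KPfC, and Eno1b had 47 beside 775 of Eno1 and 787 beside 19606. Pgk1 lies on chromosome X. The part of the near copies and of sex was not tested.

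In epithelial-like cells 6 of 30 members were higher in late KPC (all genes, 13.4%) and 3 lower (all genes, 9.66%). Hk2 was 3.73-fold (3.15 to 4.4) higher, Ndrg1 2.27-fold (1.83 to 2.8) and Egln3 2.05-fold (1.3 to 3.11), and Car9 was 2.57-fold (1.55 to 4.61) lower. Only 61 cells carried these late KPC values, and 8 of 12 dissociation stress genes were also 2-fold higher there, with sums of 12159.6 against 5684 CPM, whose part was not tested. In macrophage-like cells 2 of 31 members were higher (all genes, 9.81%), Slc2a3 7.02-fold (2.61 to 18.2) and Slc16a1 2.81-fold (2.13 to 3.67), and 6 were lower (all genes, 14%), among them Egln3 2.38-fold (1.58 to 3.74). As a mean of each cell's own CPM, 4 macrophage members passed 2-fold in place of 8. Of the 524 late KPC cells 513 were of cluster C3, which held 27 of the 1749 of late KPfC, and the part of this was not tested. In fibroblast-like cells 2 of 30 were higher (all genes, 6.11%), Slc2a3 and Hk2, and 5 were lower (all genes, 18.8%). With cells thinned, 4 fibroblast members passed 2-fold in place of 7, and C12 held 50 of the 102 cells of late KPC. In T or NK-like cells 8 of 9 enzymes compared were lower in late KPC (all genes, 18.2%) and 0 higher (all genes, 10.5%), led by Eno1, and Gapdh was 2.69-fold (2.02 to 3.64) lower. The count of 8 was 5 with cells thinned or under the stricter cell filter and 15 with no minimum of UMIs. The T or NK-like cells of late KPfC also held 12 of 14 macrophage markers at 2410.3 CPM and 6 of 8 neutrophil markers at 3615 CPM. In late KPC these were 7 of 14 at 555 CPM, with Adgre1, Csf1r and Cd68 at 0, and 6 of 8 at 410.2 CPM. Their part in the enzyme ratios was not tested.

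Within classes the members differed between clusters of the same library. Clusters were built from all variable genes, so these are descriptions. In late KIC the mesenchymal tumour cluster C14, led by F2r, Meg3, Krt18 and Hmga2, had an enzyme sum of 10411 CPM (10336 to 10486) and the ductal cluster C4, led by Gkn3, Wfdc2, Tff1 and Krt7, 6037 CPM (5811 to 6269). Their hypoxia target sums were 331 CPM (318 to 344) and 302 CPM (253 to 357). C14 was 2-fold or more higher for 7 of 29 members (all genes, 11.1%) and lower for 3 (all genes, 12.1%). Slc16a3 was at 127 against 33.5 CPM, 3.78-fold (2.28 to 6.78), and Bnip3 at 167 against 71.5 CPM, 2.34-fold (1.65 to 3.44). Car9 was lower in C14, at 8.0 against 38 CPM, 4.75-fold (2.59 to 8.28), and so was Adm, at 15.9 against 40.2 CPM, 2.54-fold (1.45 to 4.19). The ductal cluster C4 itself had enzyme sums of 6319.7 CPM (6259 to 6381) in late KPfC, and late KPC had 5562 CPM (5318 to 5814), near its value in late KIC.

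Macrophage clusters of one library also differed in the members. In late KIC C3 had an enzyme sum of 7847 CPM (7689 to 8008) and C7 one of 6738 CPM (6587 to 6892). Their hypoxia target sums were 269 CPM (241 to 300) and 139 CPM (118 to 163). C3 was higher for 4 of 26 members (all genes, 5.58%), Slc16a1, Bnip3, Ankrd37 and Ero1l, and lower for 0 (all genes, 8.68%). In late KPfC cluster C2, led by Wfdc17, Arg1 and Ccl6, had the highest enzyme sum, 8473 CPM (8402 to 8544), and the highest hypoxia target sum, 348 CPM (334 to 363). Cluster C7 of the same library, led by Ccl17, Mmp12 and C1qa, had 6399 CPM (6313 to 6486) and 172 CPM (158 to 186). C2 was higher for 8 of 30 members (all genes, 7.81%), with Adm at 16.5 against 2.7 CPM, 6.1-fold (3.1 to 13.7), Egln3 at 56.8 against 16.5 CPM, 3.44-fold (2.59 to 4.66) and Ero1l at 239 against 78 CPM, 3.06-fold (2.68 to 3.5). It was lower for 4 (all genes, 10.4%), with Ldhb at 8.16 against 66.3 CPM, 8.12-fold (6.0 to 11.2) and Aldoc at 12.5 against 42.3 CPM, 3.39-fold (2.56 to 4.51). In early KIC the cluster C18, led by Ccl8, Retnla, Pf4 and Folr2, had an enzyme sum of 1429.8 CPM (1306 to 1562) and cluster C6, led by Retnla, Lyz1 and Lyz2, 3914 CPM (3800.1 to 4031). C6 was higher for 12 of 20 members (all genes, 14.2%) and lower for 2 (all genes, 10.6%), and the hypoxia target sums of both were near each other, 107 CPM (88.9 to 128) and 86.8 CPM (58.6 to 124). Pfkfb3 was lower in C6, at 19.3 against 110.0 CPM, 5.7-fold (3.29 to 10.1).

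Among fibroblast clusters, C5 of normal pancreas had the highest hypoxia target sum of any cluster, 752 CPM (685 to 823), beside one of the lower enzyme sums, 1903 CPM (1797 to 2015). Its Adm level was 615 CPM. Its dissociation stress sum, 22873 CPM, was also the highest of any cluster. C5 of early KIC had a stress sum of 21990 CPM beside a target sum of 390 CPM. The part of the stress genes was not tested. Clusters shared with the late tumours did not have their highest target sums in normal pancreas or early KIC. Cluster C12 had 284 CPM (225 to 352) in normal pancreas, 178 (107 to 278) in early KIC, 445 in late KPfC and 446 in late KPC. Cluster C15 had 279 CPM (226 to 340) in early KIC and 561 (435 to 713) in late KPC. In late KIC the collagen-led cluster C15 had 488 CPM (441 to 538) and cluster C12, which carries mesothelial markers, 294 CPM (250.2 to 343). Against C12, C15 was higher for 3 of 23 members (all genes, 9.33%), with Adm at 80.9 against 12.8 CPM, 6.33-fold (2.91 to 16.3) and Hk2 at 735 against 209.9 CPM, 3.5-fold (2.86 to 4.31), and lower for 1 (all genes, 8.66%), Slc16a1.

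**Figure D4:**
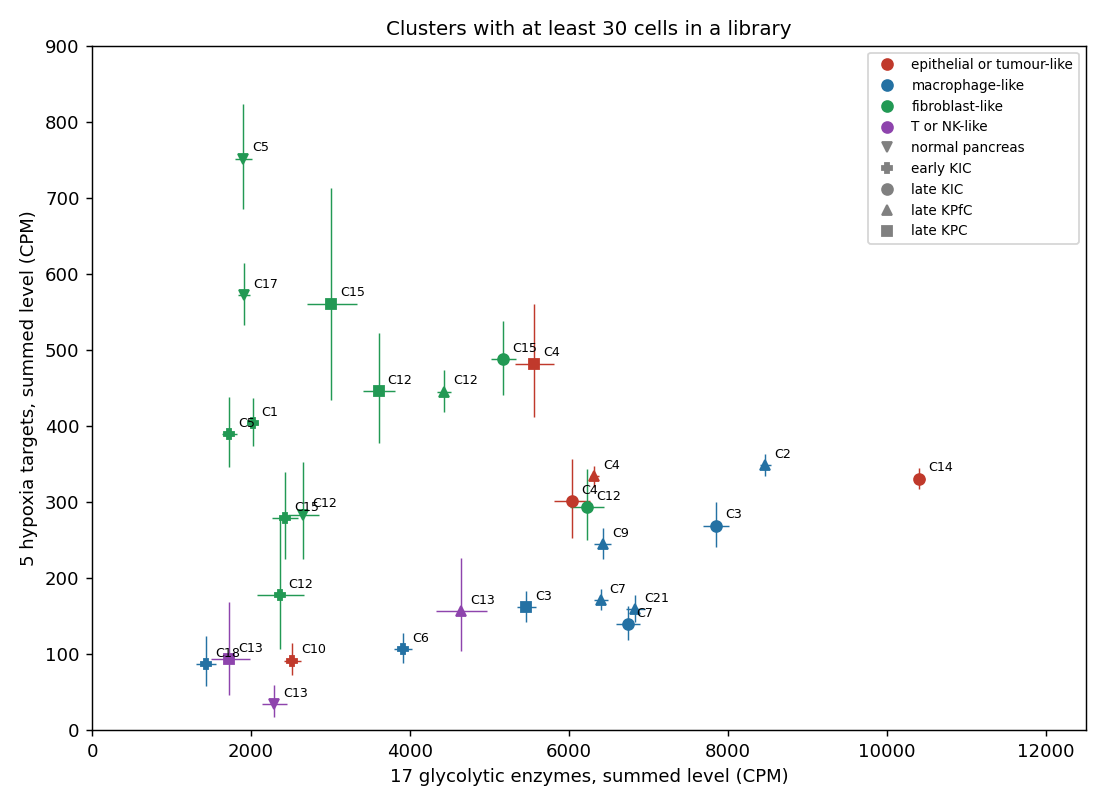
Summed enzyme level (x axis, CPM) against summed hypoxia target level (y axis, CPM) for each cluster with at least 30 cells in a library, coloured by class, with symbols for libraries and exact Poisson intervals at 95%. Fibroblast-like clusters of normal pancreas and early KIC lie at the upper left or left, the mesenchymal tumour cluster C14 of late KIC lies furthest right, and macrophage-like clusters of the late tumours lie at high enzyme and low to middle hypoxia target sums.

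Whether enzymes and hypoxia targets went together within single cells was described after each cell was thinned to 1000 UMIs. Cells with fewer were left out, which took 58 T or NK-like, 43 macrophage-like, 7 epithelial-like and 7 fibroblast-like cells of late KPC. In late KPfC 106 of 495 epithelial-like cells had a UMI of a hypoxia target, 21.4% after thinning and 75.4% before. Enzyme UMIs made up a mean of 0.852% of their UMIs and 0.501% in the cells without, a ratio of 1.7. The ratio was 1.38 in late KIC and 1.27 in late KPC, there from 17 cells with a target UMI. In macrophage-like cells the ratios were 1.38, 1.36 and 1.31 in late KIC, late KPfC and late KPC. Those of fibroblast-like cells were 1.67, 1.39 and 1.0 in the same order.

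Outside the late tumours the ratios lay nearer to 1 or below it where at least 20 cells had a target UMI. The ratio was 1.01 in fibroblast-like cells of normal pancreas, 1.0 in those of early KIC, 1.05 in macrophage-like and 0.817 in epithelial-like cells of early KIC. Before thinning, Adm gave 66.2% and 57.9% of the target UMIs of fibroblast-like cells in normal pancreas and early KIC. In late KIC, late KPfC and late KPC it gave 13.1%, 6.53% and 11.5%. A target UMI thus stood for different genes in these libraries, and the part of this was not tested. Within single clusters of the late tumours the ratio ran from 1.21 in C7 to 1.72 in C4, both of late KPfC, and was 1.29 in C14 of late KIC and 1.32 in C3 of late KPC. In early KIC it was 0.823 in the epithelial cluster C10 and 0.953 in the macrophage cluster C6, and 0.973, 0.993 and 1.09 in the fibroblast clusters C1, C15 and C5. In normal pancreas it was 0.949 in C5 and 1.09 in C17. The mean share of oxidative phosphorylation genes was lower or nearly level in cells with a target UMI in these 3 classes of the late tumours, except in fibroblast-like cells of late KIC. It was nearly level in fibroblast-like cells of late KPfC, 0.457% with and 0.46% without, and in epithelial-like cells of late KPC, 0.624% and 0.627%. In epithelial-like cells of late KPfC the share was 0.54% in cells with a target UMI and 0.571% in those without. In fibroblast-like cells of late KIC it was 0.55% in cells with a target UMI and 0.486% in those without, the same way as the enzymes. Cells of 1 library are not replicates, so no test was made.

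**Figure D5:**
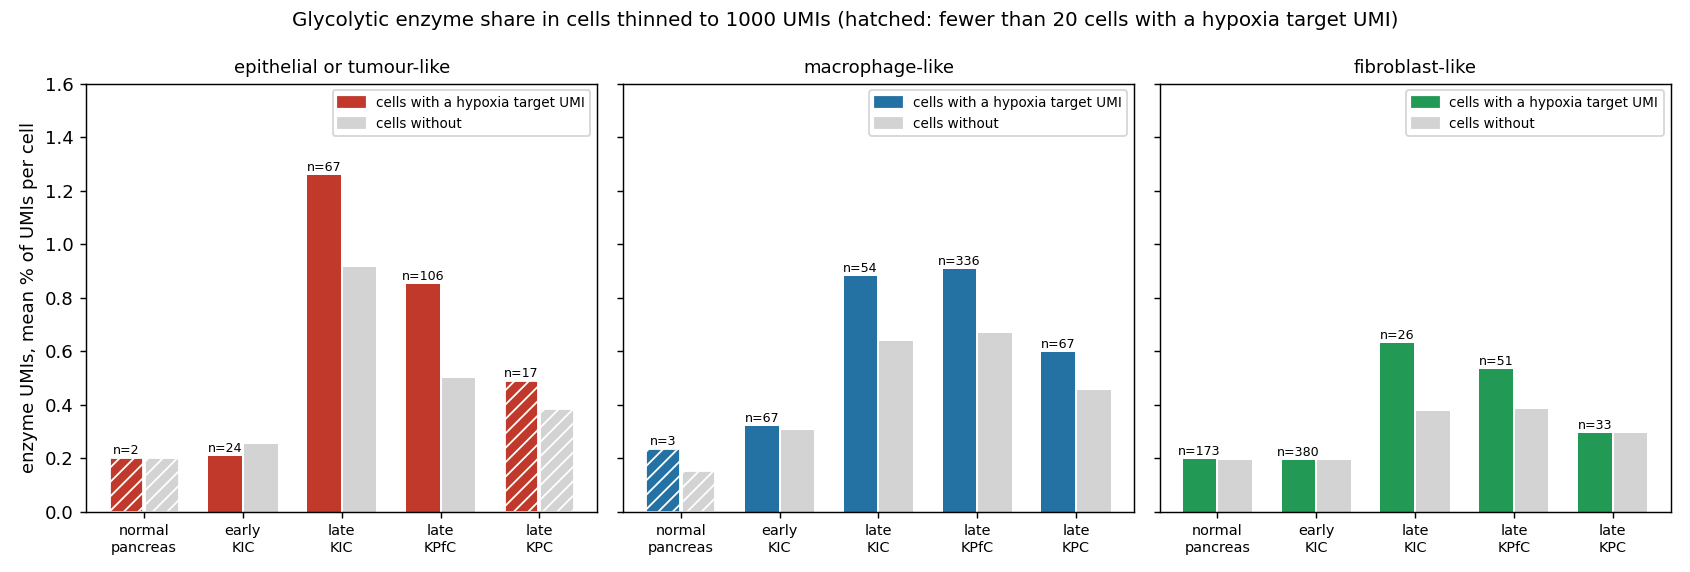
Mean share of UMIs from the 17 glycolytic enzymes (y axis, percent) in cells thinned to 1000 UMIs, with (coloured bars, number of cells above) and without (grey bars) a UMI of a hypoxia target, by library (x axis) in 3 classes; hatched pairs have fewer than 20 cells with such a UMI, and no error is drawn. The coloured bars exceed the grey ones in late KIC and late KPfC in all 3 classes and are level with them in fibroblast-like cells of normal pancreas and early KIC.

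The other genes of the response were taken from lists of the HIF pathway (7 genes) and of further hypoxia-induced genes (12 genes). Late against early KIC, 6 of 11 further genes were higher (all genes, 13.5%) and 1 lower (all genes, 27.3%) in epithelial-like cells. In macrophage-like cells 5 of 8 were higher (all genes, 10.4%) and 0 lower (all genes, 8.64%), and in fibroblast-like cells 4 of 11 were higher (all genes, 7.79%) and 0 lower (all genes, 16.2%). Their median log2 ratios were 1.10, 1.21 and 0.68. In epithelial-like cells Ddit4, an inhibitor of mTORC1, was at 119 against 23.8 CPM, 5.0-fold (3.25 to 8.12) higher, and Lox, a collagen cross-linking enzyme, at 1.85 against 6.8 CPM, 3.68-fold (1.16 to 10.2) lower. Hilpda, a lipid droplet protein, was at 1979 against 620.4 CPM, 3.19-fold (2.97 to 3.43) higher in macrophage-like cells. Of the 7 HIF pathway genes, 0 were higher and 2 lower in epithelial-like cells, 1 higher and 1 lower in macrophage-like cells, and 0 higher and 1 lower in fibroblast-like cells. Against the same shares of all genes, the lower counts in epithelial-like and fibroblast-like cells were near the background. Epas1, the HIF-2 alpha subunit, was lower in epithelial-like cells of late KIC, at 0.66 against 31.7 CPM, 48.1-fold (18.3 to 159.5), and lower in macrophage-like cells, at 2.86 against 11.3 CPM, 3.97-fold (1.56 to 11.3), and fibroblast-like cells, at 13 against 40.6 CPM, 3.13-fold (1.89 to 5.47). Hif1a, the HIF-1 alpha subunit, was higher in macrophage-like cells of early KIC than of normal pancreas, at 140.1 against 38.4 CPM, 3.65-fold (1.82 to 8.57). In the same comparison Vegfa, the vascular growth factor, was at 67.4 against 4.8 CPM, 14-fold (2.46 to 560.1) higher, with 1 UMI in the 50 normal cells. Within early KIC both Hif1a and Vegfa were at least 2-fold higher in macrophage cluster C6 than in C18. Normal pancreas had 23 cells of C6 and 25 of C18, and early KIC had 550 and 209. The part of this cluster mix was not tested. Of the 12 oxidative phosphorylation genes, 1 was higher in epithelial-like and 1 in fibroblast-like cells late against early KIC, Cox5a in both, and 0 were lower in any of the 3 classes.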

How the data were processed

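The authors deposited UMI counts per gene and barcode for each library, made with Cell Ranger 2.1.1 on GRCm38 per the submitters' processing notes. Barcodes with at least 200 genes, 500 UMIs and at most 20% mitochondrial UMIs were kept. Cells of all libraries were clustered together with scanpy 1.11.5 (2000 variable genes, 30 components, 15 neighbours, leidenalg 0.10.2, resolution 1) on Python 3.11.15, without batch correction, and 31 clusters were named from marker lists, with 4 (316 cells) left unnamed. Doublets were not removed, and free RNA was not subtracted. Within a library the UMI counts of a class were added up, and a gene was scaled to 1000000 UMIs of that sum (CPM). Intervals are exact Poisson for a level and exact binomial for a ratio or share. A gene was compared with at least 20 UMIs over both sides and called at 2-fold, and a count of 0 was set to 3. All 32 members were described, and other genes were named where they were past 2-fold and among the 2 furthest from 0 of their list. The members and lists were chosen with earlier results of these data known. The calculations were tested on simulated data. With 1 library for each group there is no replicate check, and 10 planned and 2 added alternatives were run.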

Additional observations from a re-analysis of the deposited data

Results flagged for a closer look

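Some members stood on opposite sides of 2-fold in different classes under the same comparison of libraries, with counting intervals that left out 1 on both sides. With 1 library for each group, the difference was not tested in any of these cases. Late against early KIC, the log2 ratio of the aldolase gene Aldoc was 2.53 in macrophage-like cells and -4.40 in epithelial or tumour-like cells. In the same comparison the lactate dehydrogenase gene Ldhb was at 1.55 in fibroblast-like and at -4.61 in epithelial or tumour-like cells, and Adm was at 1.61 in epithelial or tumour-like and at -2.03 in fibroblast-like cells. Late KIC against late KPfC, Adm was at 1.49 in epithelial or tumour-like and at -1.94 in macrophage-like cells. Late KPC against late KPfC, Adm was at 1.66 in epithelial or tumour-like and at -1.24 in macrophage-like cells, and the prolyl hydroxylase gene Egln3 was at 1.04 and -1.25 in the same classes. Adm rested in part on few UMIs. It had 5 in epithelial or tumour-like cells of early KIC and 7 in macrophage-like cells of late KIC. In late KPC it had 7 in epithelial or tumour-like and 7 in macrophage-like cells.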

How the results depend on the processing

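Of 285 recomputed values of the summed levels and counts, 238 stayed near the first value, 46 moved and 1 reversed, and of 1410 for single members 1342 stayed, 64 moved and 4 reversed. The cause of each was not tested. The log2 enzyme ratio of epithelial-like over macrophage-like cells (early KIC -0.41, late KIC 0.51, late KPfC -0.21, late KPC 0.06) was -1.26, 0.11, -0.68 and -0.34 under median-of-ratios scaling, -0.29, 0.55, -0.31 and -0.19 with thinned cells, and -0.31, -0.30 and -0.21 in early KIC, late KPfC and late KPC as a mean of each cell's own CPM. It was 0.55 in late KIC without the deepest 5% of cells. In late KPfC it was -0.19 without acinar, haemoglobin and mitochondrial UMIs in the total, -0.15 under the stricter filter and -0.24 with each library clustered alone. The log2 hypoxia target ratio of fibroblast-like over epithelial-like cells (2.02, 0.31, 0.42 and -0.01) was 2.45, 0.44, 0.56 and 0.41 under median-of-ratios scaling. As a mean of each cell's own CPM it was 0.056 in late KIC and 0.37 in late KPC, and in late KPfC it was 0.58 with thinned cells. Members highest in epithelial-like cells (9, 17, 8 and 15) were 5 in early KIC, 4 in late KPfC and 9 in late KPC under median-of-ratios scaling, 5 in late KPfC by own CPM, and in late KPC 7 with thinned cells and 9 without the deepest cells. Members past 2-fold with thinned cells were 6 in place of 10 (macrophage-like, early KIC against normal), 5 in place of 3 (macrophage-like, late KIC against late KPfC), 10 in place of 16, 1 in place of 6 and 4 in place of 7 (fibroblast-like, late against early KIC, then late KIC and late KPC each against late KPfC) and 5 in place of 8 (T or NK-like), and Bnip3 in fibroblast-like cells late against early KIC was -0.43 in place of 1.99. The macrophage-like count of early KIC against normal was 6 with each library clustered alone, and that of late KPC against late KPfC was 4 in place of 8 by own CPM. The fibroblast-like count of early KIC against normal, 3, was 6 by own CPM, 6 without the deepest cells and 5 with no minimum of UMIs. The T or NK-like count was 5 under the stricter filter and 15 with no minimum. After the data were seen, 2 alternatives were added. Without the cluster with mesothelial markers the hypoxia target ratio of late KIC was 0.55 and the fibroblast-like count of early KIC against normal was 5, and late KPfC kept too few fibroblast-like cells for a value. Without the mesenchymal tumour cluster the enzyme ratio was -0.24 in late KIC and -0.23 in late KPfC, members highest in epithelial-like cells of late KIC were 9, and members past 2-fold, late KIC against late KPfC, were 2 in place of 12, with Aldoc at 0.71 in place of -1.74, P4ha1 at -0.048 in place of 1.14 and Slc16a3 at -0.30 in place of 1.47. A finer clustering (resolution 2) and clusters built without the 32 genes moved none of the summed levels and counts. Classes of 25 to 104 cells limit what low members can show. No paired analysis was possible because each group has 1 library.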

Other observations

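Outside the 4 classes, the enzyme sum spanned a wider range. Neutrophil-like cells of late KPfC (105 cells) had 7959 CPM (7702 to 8223) for the 17 enzymes and 213 CPM (173 to 260.0) for the 5 hypoxia targets. Acinar-like cells, which make digestive enzymes, had 162 CPM (154 to 171) in normal pancreas (1415 cells) and 331 CPM (298 to 367) in early KIC (443 cells), below every class described above. Their main cluster in normal pancreas was led by Amy1, Ctrl and Pnlip, and UMIs of such genes count in the CPM total. The part of this in the low sums was not tested. Dendritic-like cells had enzyme sums of 2166 CPM (1978 to 2367) in normal pancreas, 3091 CPM (2889 to 3303) in early KIC, 4439.8 CPM (4193 to 4697) in late KIC and 4311 CPM (4167 to 4458) in late KPfC. Their hypoxia target sums were 70.9 CPM (40.5 to 115), 113 CPM (77.6 to 160.1), 242 CPM (187 to 307) and 323 CPM (285 to 366) in the same order. Endothelial-like cells of early KIC (196 cells) held 305 CPM (249.9 to 368) of the hypoxia targets beside an enzyme sum of 2132 CPM (1983 to 2289.9). B or plasma-like cells had low hypoxia target sums, 26.4 CPM (14.4 to 44.2) in normal pancreas and 26.3 CPM (10.6 to 54.2) in late KIC. No differences between libraries were tested here.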
